A study of Caenorhabditis elegans with 8 samples.

Results

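The subject here is the response of drsh-1 mutant Caenorhabditis elegans to fasting, read across all genes of 1 microarray type. It rests on 2 arrays of 8 in the series, drsh-1 animals that fasted and drsh-1 animals that were fed, taken as the difference fasting minus fed for every probe set that is not a manufacturer's control. The table holds 22548 such probe sets beside 77 controls. After the dimmest 30% of them were set aside (6765 probe sets, of which 0 differed 2-fold either way in drsh-1), 15783 remained and gave 11975 named genes with 1 probe set each. The tested strain carries the deletion allele drsh-1(ok369), and the other strains in the series are ain-1(tm3681), daf-16(mu86) and the wild type N2, each also fasting and fed on 1 array each. All were labelled day 4 adults, kept at 20 °C, and held on plates with the DNA synthesis inhibitor FUDR. On day 2 they went to further FUDR plates that held UV-killed OP50 bacteria for the fed group and no bacteria for the fasting group, so every group, fed wild type included, was exposed to FUDR and the fed groups ate dead bacteria. RNA came from whole animals, so a lower value can mean fewer cells of a type or less RNA per cell, and these cannot be told apart.

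The enzyme encoded by drsh-1 is Drosha, the nuclear ribonuclease that cuts primary microRNA transcripts into hairpins. The hairpins are then cut by Dicer and loaded into Argonaute proteins, and the loaded complex, which holds AIN-1 as a partner of Argonaute, lowers the translation and stability of the messenger RNAs it pairs with. Fasting in C. elegans is known to raise genes of fat use, partly through the nuclear receptor NHR-49, and the FOXO factor DAF-16 acts in its effect on lifespan. The series asks how far the microRNA machinery takes part in the transcript changes of fasting.

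Values are array intensities on a linear scale as the authors deposited them. Changes are differences of log2(intensity + 16), a scale that understates the change of dim genes, and folds are given on the same scale. With 1 array a side, the drsh-1 change has no replicate check. A gene is counted as lower or higher only when it differed at least 2-fold, and these counts are descriptions of 2 arrays.

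The 2 probe sets for drsh-1 itself read differently. One stood at 17.1 in fasting and 13.96 in fed drsh-1 animals, against 223 and 258 in ain-1, 189.6 and 300.4 in daf-16, and 185 and 183 in wild type, so both drsh-1 arrays were far below all 6 others. The other stood at 357 in fasting and 397 in fed drsh-1 animals, against 68.8 in fasting and 68.7 in fed wild type, or 5.19 and 5.78 times the wild-type value. Where each probe set lies relative to the deletion was not checked here. On both probe sets the 2 drsh-1 arrays stood apart from the 6 others, and their changes with food, in the order given, were 0.14 and −0.15 on the log2 scale. Array medians were 35.1 to 37.7 over the 8 arrays. The 50 spiked-in or foreign control probe sets differed between the drsh-1 arrays by −0.46 to 0.12 (SD 0.11 over probe sets), and 27 C. elegans control probe sets by −0.12 to 0.19.

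Fasting drsh-1 animals had many genes lower and very few higher than fed ones. Of the 11975 genes, 133 were at least 2-fold lower in fasting (1.11% of genes) and 4 were at least 2-fold higher (0.0334%). At a 3-fold limit 66 genes were lower and 0 higher, at 4-fold 40 and 0, and at 8-fold 12 and 0, while at 1.5-fold 278 were lower and 33 higher. In the other strains the higher side was well filled at 2-fold, where ain-1 had 432 genes lower (3.61%) and 324 higher (2.71%), daf-16 had 613 lower (5.12%) and 851 higher (7.11%), and wild type had 419 lower (3.5%) and 309 higher (2.58%). Counted over probe sets, 1.04% were lower and 0.0317% higher in drsh-1, against 3.49% and 2.72% in ain-1, 5.01% and 7.17% in daf-16, and 3.36% and 2.58% in wild type. Most drsh-1 values lay close together in both states, and 79.5% of probe sets differed by no more than 0.2 in drsh-1, against 50.1% in ain-1, 37.3% in daf-16 and 52.2% in wild type. The median change of all genes in drsh-1 was 0.01, and 48.2% of genes lay below 0.

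**Figure D1:**
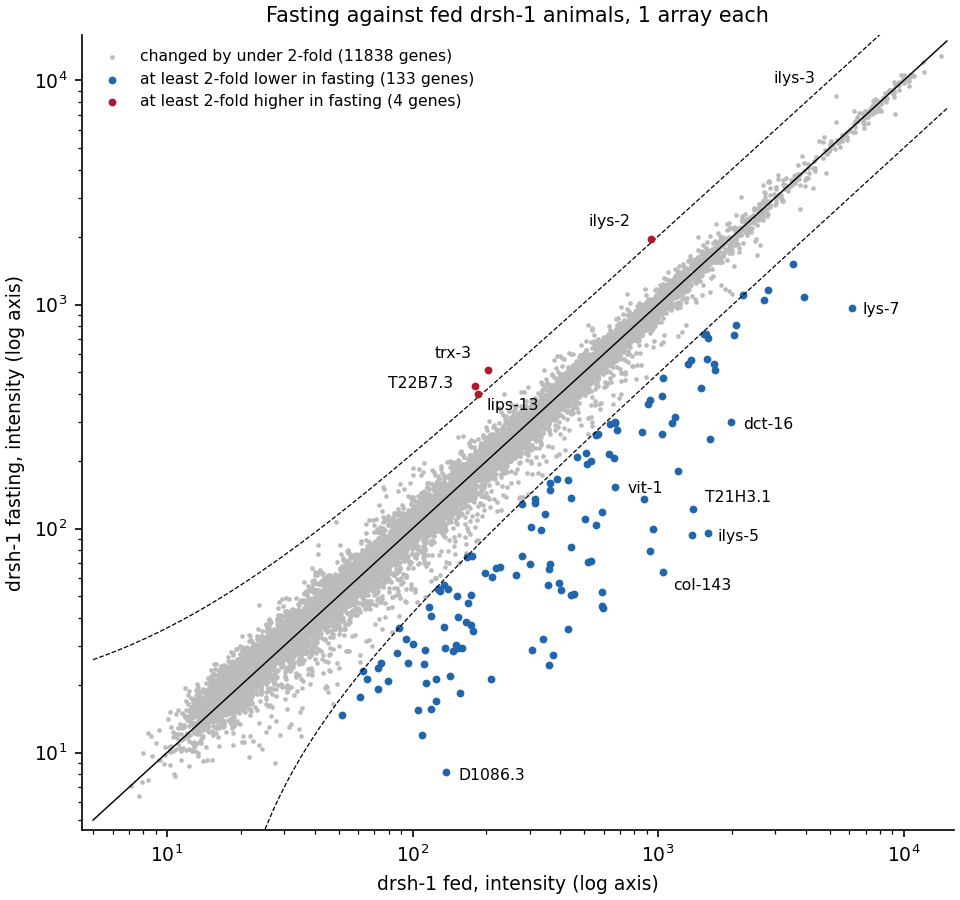
Intensity of 11975 genes in fasting drsh-1 animals (vertical, log axis) against fed drsh-1 animals (horizontal, log axis), 1 array each, with the line of equality solid and the 2-fold limits on the log2(intensity + 16) scale dashed. The 133 genes at least 2-fold lower lie below the lower dashed line and 4 lie above the upper one, with lys-7 (6167 in fed animals) the brightest of the lower genes when fed.

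**Figure D2:**
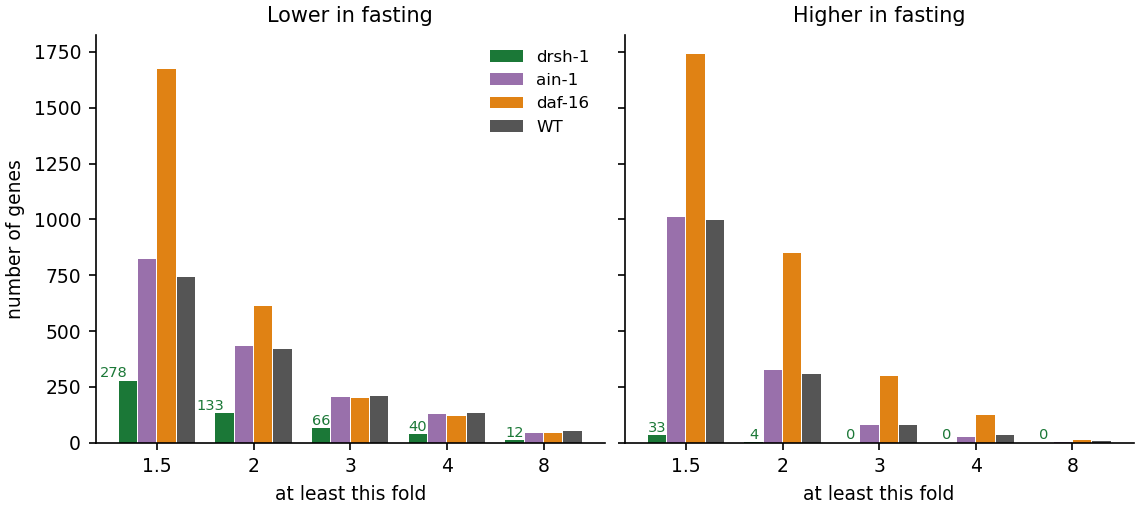
Number of genes lower (left) and higher (right) in fasting at 5 fold limits in drsh-1, ain-1, daf-16 and wild type, 1 array a side. The drsh-1 bars, numbered, run from 278 to 12 on the lower side and from 33 to 0 on the higher side.

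The 3 lowest genes encode a lysozyme, a cuticle collagen and a carboxypeptidase. The lowest was ilys-5, an invertebrate-type lysozyme, at 95.7 in fasting and 1590.5 in fed drsh-1 animals, a 14.4-fold difference. Its other arrays read 99.9 fasting and 5513 fed in ain-1, 171 and 6637 in daf-16, and 188 and 7783 in wild type. Fasting arrays of all 4 strains were thus of one order, and the fed drsh-1 array was the lowest of the 4 fed ones. The cuticle collagen col-143 came next, at 64.3 and 1044 in drsh-1, against 301 and 4382 in ain-1, 812 and 4855 in daf-16, and 809 and 5642 in wild type (fasting and fed in each pair). For this collagen both drsh-1 arrays were the lowest of their kind. The carboxypeptidase gene ctsa-1.2 stood at 93.9 and 1369 in drsh-1, against 54.8 and 2277 in ain-1, 66.3 and 2079 in daf-16, and 84.2 and 2867 in wild type, so its fasting value in drsh-1 was the highest of the fasting arrays.

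Of the 70 gene lists, the lysozymes had the largest share of members lower. For every list, the drsh-1 shares over all genes to set beside its counts are 1.11% lower, 0.0334% higher and 48.2% below 0. Of 7 lys genes that passed the filter (10 on the array), 5 were at least 2-fold lower and 0 higher, with a median change of −1.30 beside 0.01 for all genes. lys-2 stood at 35.7 in fasting and 430.3 in fed drsh-1 animals, against 139.7 and 2234 in ain-1, 76.1 and 2144 in daf-16, and 148 and 2722 in wild type. lys-7, a lysozyme that DAF-16 is known to activate, stood at 968 and 6167 in drsh-1, against 911 and 7169 in ain-1, 38.2 and 1539 in daf-16, and 704 and 7530.3 in wild type. Its level was low in both daf-16 arrays, while drsh-1 kept a fed level near that of wild type. lys-1 was 2.77-fold lower (728 against 2045) and lys-8 2.47-fold lower (361 against 913).

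lys-4 ran differently across strains. lys-4 read 32.2 in fasting and 94.2 in fed drsh-1 animals, a 2.29-fold difference, against 672 and 684 in ain-1, 651 and 760.0 in daf-16, and 966 and 971 in wild type. Both drsh-1 arrays lay far below all 6 others, and among those 6 fasting and fed values nearly met.

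The invertebrate-type lysozymes split. Besides ilys-5, ilys-2 was among the 4 higher genes, at 1963 in fasting and 938 in fed drsh-1 animals, against 71.8 and 17.4 in ain-1, 56.9 and 11.2 in daf-16, and 42.98 and 12.01 in wild type. The change was 1.05 in drsh-1, beside 1.39 in ain-1, 1.42 in daf-16 and 1.07 in wild type, and both drsh-1 levels were above every array of the others. ilys-3, a lysozyme known to act on bacteria in the gut, had 8548 in fasting and 5308 in fed drsh-1 animals, against 2026 and 52.6 in ain-1, 74.5 and 28.1 in daf-16, and 975 and 38.4 in wild type. Fed drsh-1 animals already exceeded every fasting array of the other strains, and the change within drsh-1 was 0.69, short of 2-fold. ilys-4 was near level at 299 and 305.

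Saposin-like caenopores, which make pores in bacterial membranes, had 3 of 13 members lower: spp-14, spp-23 and spp-8. spp-14 stood at 269 in fasting and 859.6 in fed drsh-1 animals, against 940.0 and 1692 in ain-1, 996 and 1039 in daf-16, and 943 and 1340.2 in wild type. Its drsh-1 fasting value was well below every other array. The list's median was −0.18 in drsh-1.

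C-type lectins, the largest immune family here with 98 members past the filter, had 7 lower and 0 higher and a median of 0.01, the same as all genes. clec-186, at 38.1 and 165 in fasting and fed drsh-1 animals, was 3.35-fold lower and the lowest of them. clec-41 stood at 565 and 1361 in drsh-1, against 77.9 and 1718 in ain-1, 75.1 and 1196 in daf-16, and 75.3 and 1861 in wild type. The fed drsh-1 array lay within the range of the other fed arrays, and the fasting drsh-1 array kept a level well above the other 3 fasting arrays.

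Of 16 genes of the PMK-1 p38 pathway and intestinal immune effectors, 3 were lower and 0 higher. sysm-1, a secreted peptide known as a readout of that pathway, stood at 44.3 in fasting and 598 in fed drsh-1 animals, against 27.3 and 2862 in ain-1, 21.5 and 1351 in daf-16, and 12.4 and 2101 in wild type. C17H12.8 was 9.25-fold lower (24.7 against 360.4) and irg-7, an infection response gene, 5.65-fold lower (57.1 against 397). Outside that list, and picked after their values were seen, irg-3 differed by −1.85 and irg-8 by −1.88. The epidermal antimicrobial peptides gave 0 genes past 2-fold, but 13 of 14 lay below 0, with a median of −0.32 in drsh-1, against −0.13 in ain-1, 0.08 in daf-16 and −0.02 in wild type. cnc-7 differed by −0.81 in drsh-1, against −1.52 in ain-1, −1.19 in daf-16 and −0.06 in wild type. Its fasting drsh-1 value was under the intensity of 15.71 at which probe sets were set aside. nlp-29 differed by −0.60, against −0.52, −0.75 and −0.16 in the same order. cnc-4 differed by −0.48, against −0.61, −0.17 and −0.22. None of cnc-7, nlp-29 and cnc-4 was 2-fold in drsh-1, and each fell further in ain-1, daf-16 or both. For nlp-30 the fall was largest in drsh-1, at −0.42, against −0.05 in ain-1, 0.45 in daf-16 and 0.66 in wild type.

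Gut hydrolases formed the next block. Of 30 lysosomal and secreted proteases, 7 were lower and 0 higher (median −0.34, 23 below 0). asp-17, an aspartyl protease, stood at 27.4 in fasting and 373 in fed drsh-1 animals, against 29.8 and 289.5 in ain-1, 19.6 and 407 in daf-16, and 28.4 and 507 in wild type. Its fasting levels were thus of one order across the 4 strains, and so were its fed levels. The cathepsin B-like gene cpr-9 stood at 181 and 1205 in drsh-1, against 1219 and 3762 in ain-1, 2274 and 4596 in daf-16, and 1249 and 3596 in wild type. Here the drsh-1 fasting value was below every other array, and its step of −2.63 was the largest of the 4 strains (−1.61 in ain-1, −1.01 in daf-16 and −1.51 in wild type). cpr-5 did likewise at −2.58, beside −1.47 in ain-1, −1.01 in daf-16 and −1.95 in wild type. The V-ATPase subunits, which acidify the lysosome, had 0 of 19 past 2-fold, between −0.21 for vha-10 and 0.15 for vha-15. The acid alpha-glucosidase genes aagr-1 and aagr-2, which break down glycogen and maltose-like sugars, were 2.88-fold lower (36.2 against 134) and 2.79-fold lower (215 against 628), the 2 lower genes among 15 of the glycogen and trehalose list.

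The nspg genes, a family of nematode-specific peptides, were lower in 5 of 9 listed members, with a median of −1.24 in drsh-1, against −3.14 in ain-1, −3.10 in daf-16 and −2.78 in wild type. nspg-9 stood at 55.9 in fasting and 356 in fed drsh-1 animals, against 114 and 2082 in ain-1, 93.9 and 1735 in daf-16, and 95.04 and 2219 in wild type. The related nspg-7.1, which the list's name pattern leaves out, was 6.17-fold lower (251 against 1629.5). For nspg-9 both drsh-1 arrays were the lowest of their kind, and the gap to the other strains was wider in fed animals.

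Cuticle collagens supplied the most genes of any list, 20 lower of 109 that passed the filter and 0 higher. Their median was only −0.06 in drsh-1, against −0.36 in ain-1, −0.34 in daf-16 and −0.43 in wild type, since most members stayed near 0. Summed over the list, intensity was 11506 in fasting and 27544 in fed drsh-1 animals. col-140 stood at 79.3 and 924 in drsh-1, against 284 and 2247 in ain-1, 1101 and 4193 in daf-16, and 1088 and 4287 in wild type. col-101 stood at 50.3 and 441 in drsh-1, against 210.4 and 2200.5 in ain-1, 443 and 1849 in daf-16, and 520.4 and 1999 in wild type. Both were lower in every drsh-1 array than in the matching array of any other strain. col-160 was 4.62-fold lower (82.9 against 441). col-19, the adult-stage collagen used to score the larval-to-adult switch and picked here for that role after its value was seen, stood at 75.6 in fasting and 280.1 in fed drsh-1 animals, against 162 and 642 in ain-1, 286 and 1241 in daf-16, and 465 and 1244 in wild type.

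Among 17 collagens that set body shape, dpy-13 (276 against 682, 2.39-fold) and sqt-3 (739.9 against 1544, 2.06-fold) were lower. The sqt-3 value comes with a reservation, since its brightest probe set differed by −1.04 and its others by 0.12 in the median. dpy-4 differed by −0.94 and dpy-14 by 0.32. Enzymes that process collagen gave 0 of 10 past 2-fold, between −0.22 for phy-2 and 0.35 for mlt-7. Basement membrane genes gave 0 of 12, with 9 below 0 and a median of −0.26, against −0.01 in ain-1, −0.22 in daf-16 and 0.06 in wild type. The laminin genes lam-1 and lam-2 differed by −0.37 and −0.59 in drsh-1, while in ain-1 they differed by 0.82 and 0.54, in daf-16 by 0.68 and 0.67, and in wild type by 0.99 and 1.44. The type IV collagen let-2 and nidogen nid-1 had values below 0 in each strain, with changes of −0.61 and −0.50 in drsh-1, against −1.46 and −1.29 in wild type.

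**Figure D3:**
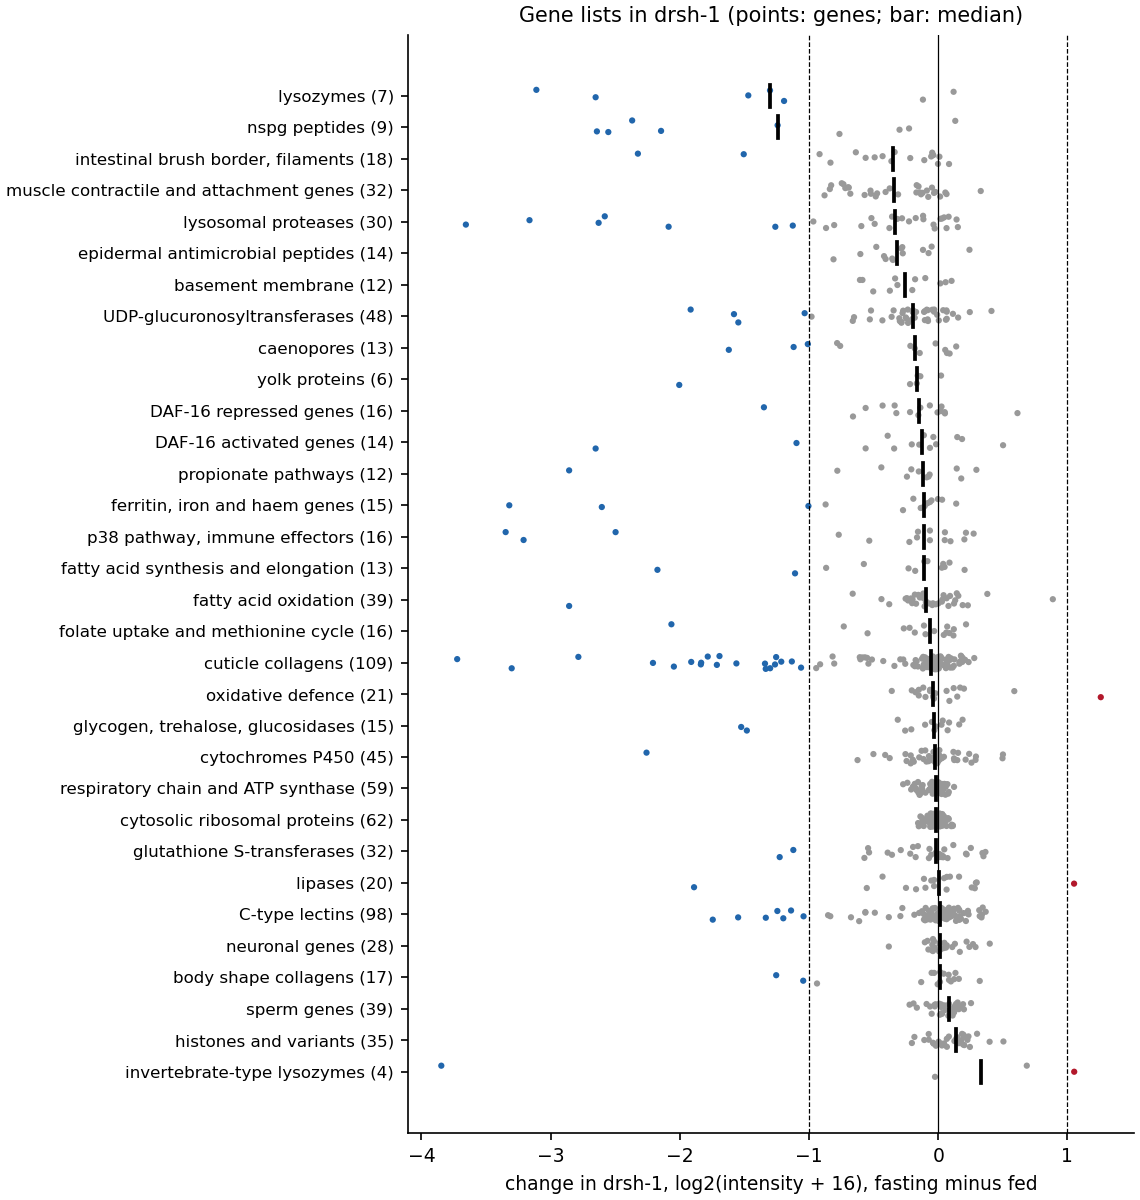
Change in drsh-1 (fasting minus fed, log2(intensity + 16)) of every gene that passed the filter in 32 gene lists, with the number of genes in brackets, a bar at each median, and dashed lines at 2-fold. Lysozymes (median −1.30) and nspg peptides (median −1.24) stand apart at the top, while in the other lists drawn the median lies within 0.35 of 0 and single genes run out to the left.

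Fat and carbon metabolism showed single genes rather than whole pathways. Of 39 genes of fatty acid oxidation 1 was 2-fold lower and 0 higher. It was acdh-1, an acyl-CoA dehydrogenase of the propionate shunt that is known to follow the bacterial diet, at 28.6 in fasting and 307 in fed drsh-1 animals, against 44.5 and 1196 in ain-1, 246 and 896 in daf-16, and 367 and 1947 in wild type. The fatty acid elongases elo-5 and elo-6, which make branched-chain fatty acids, were both lower. elo-5 stood at 118 and 589 in drsh-1, against 704 and 1503 in ain-1, 460.4 and 1441 in daf-16, and 787 and 1471 in wild type. elo-6 stood at 209 and 469.5 in drsh-1, against 1289 and 963 in ain-1, 351 and 642 in daf-16, and 1293 and 748 in wild type, so its direction was down in drsh-1 and daf-16 and up in ain-1 and wild type. The desaturase fat-7, which makes oleic acid, differed by −0.66 in drsh-1, against −2.71 in ain-1, −3.55 in daf-16 and −2.02 in wild type, on fed levels of 49.1 in drsh-1 and 311, 625 and 563 in the others in that order.

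Of 13 NHR-49 targets and regulators, 0 were 2-fold lower or higher, with changes in drsh-1 between −0.23 and 0.11. acs-2, the acyl-CoA synthetase that NHR-49 is known to switch on in fasting, stood at 211 in fasting and 244 in fed drsh-1 animals, against 1347 and 83.6 in ain-1, 841 and 66.7 in daf-16, and 1878 and 53.9 in wild type. Fed drsh-1 animals thus had more of it than other fed animals and fasting ones less than other fasting animals. The glyoxylate cycle gene icl-1 stood at 2139.7 and 2370.4 in drsh-1, against 3378 and 1659 in ain-1, 2070.3 and 510.5 in daf-16, and 4211 and 1130.1 in wild type. The alcohol dehydrogenase adh-1 stood at 293 and 358 in drsh-1, against 3241 and 54.5 in ain-1, 1789 and 62.9 in daf-16, and 3848 and 191 in wild type.

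Among the other genes of feeding, the yolk gene vit-1 was 4.01-fold lower (154 against 666), while vit-2, vit-4 and vit-6 lay between −0.22 and −0.16. The folate transporter folt-2 stood at 21.9 in fasting and 142.7 in fed drsh-1 animals, against 22.9 and 609 in ain-1, 25.4 and 697 in daf-16, and 21.4 and 1016 in wild type, with all 4 fasting arrays together and the fed drsh-1 array lowest of the fed. Of 15 iron and haem genes, the haem-responsive hrg-11.2 (44.9 against 592, 9.99-fold), hrg-11.3 (53.0 against 403, 6.08-fold) and hrg-7 (36.0 against 88.3, 2.01-fold) were lower. Of 20 lipases 1 was lower and 1 higher, lips-11 (296 against 1140.2, 3.71-fold) and lips-13.

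Among detoxification enzymes the glucuronosyltransferases had most members below 0. Of 48 UDP-glucuronosyltransferases 4 were lower (ugt-44, ugt-26, ugt-22 and ugt-17), beside 1.11% of all genes, and 38 lay below 0, beside 48.2%. The median was −0.20 in drsh-1, against −0.42 in ain-1, −0.16 in daf-16 and −0.02 in wild type, where 9 members were 2-fold lower. ugt-44 stood at 21.3 in fasting and 125 in fed drsh-1 animals, against 262 and 598 in ain-1, 152 and 577 in daf-16, and 234 and 662 in wild type. Of 45 cytochromes P450 1 was lower, cyp-13A5, at 104.2 and 559 in drsh-1, against 117 and 217 in ain-1, 93.8 and 159 in daf-16, and 110.5 and 298 in wild type. For this gene the fasting arrays were alike and fed drsh-1 stood highest. Of 32 glutathione S-transferases, gst-10 (2.34-fold) and gst-24 (2.18-fold) were lower.

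Galectins were looked at after lec-9 was seen among the lower genes. Of 11 lec genes, 4 were at least 2-fold lower (lec-9, lec-10, lec-6 and lec-11), beside 1.11% of all genes, with a median of −0.14. The 4 include lec-9, the gene that prompted the look. lec-9 stood at 65.9 in fasting and 358 in fed drsh-1 animals, against 107 and 1314 in ain-1, 87.2 and 1673 in daf-16, and 101 and 1519.6 in wild type.

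The 4 higher genes were trx-3, T22B7.3, ilys-2 and lips-13. trx-3, a thioredoxin, stood at 509 in fasting and 204 in fed drsh-1 animals, against 40.8 and 24.5 in ain-1, 106 and 29.9 in daf-16, and 31.9 and 23.7 in wild type. lips-13, a lipase-related gene, stood at 401 and 185 in drsh-1, against 19.2 and 17.1 in ain-1, 18.6 and 14.6 in daf-16, and 18.2 and 16.3 in wild type. T22B7.3 stood at 435 and 180.4 in drsh-1, against 257 and 86.9 in ain-1, 254 and 53.7 in daf-16, and 200.1 and 46.5 in wild type. All 4 had fed drsh-1 levels above every other fed array. lips-13 was the 1 gene of the 4 whose mean change in the other strains was under 0.5. The value just inside the upper limit was lips-13 at 1.05 and the one just outside pals-27 at 0.93, and at the lower limit kola-4 at −1.004 and ugt-62 at −0.98.

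Many lists gave 0 genes past 2-fold, 46 of 70. Insulin pathway genes had a median of 0.02, TOR pathway genes −0.05 and AMP-activated kinase subunits 0.00. microRNA processing and silencing genes lay between −0.27 (vig-1) and 0.26 (nhl-2), with a median of 0.04, and targets of the lin-4 and let-7 microRNAs between −0.31 (nhr-23) and 0.34 (nhr-25), with a median of 0.08. Of those targets, hbl-1 stood at 512 in fasting and 446 in fed drsh-1 animals, against 152 and 116 in ain-1, 101 and 78.7 in daf-16, and 101 and 89.5 in wild type, so it differed by strain far more than by food. Some lists that moved in the other strains lay near 0 in drsh-1. SKP1-related genes, adaptors of ubiquitin ligases, had a median of 0.02 in drsh-1, against 0.79 in ain-1, 1.19 in daf-16 and 0.71 in wild type. Autophagy genes had a median of 0.04, against 0.30, 0.51 and 0.29 in the same order, and respiratory chain genes −0.02, against 0.30, 0.34 and 0.34.

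By tissue, muscle contractile and attachment genes gave 0 of 32 past 2-fold, but 28 lay below 0 (median −0.34, against −0.46 in ain-1, −0.52 in daf-16 and −0.60 in wild type), led by pqn-22 at −0.88, unc-27 at −0.84 and clik-1 at −0.83. Intestinal brush border and filament genes had 2 of 18 lower, the transporter pgp-1 (18.4 against 156, 5.01-fold) and the intermediate filament ifb-2 (66.5 against 218, 2.84-fold), and 16 below 0, with a median of −0.35. Their summed intensity was 5995 in fasting and 8239 in fed drsh-1 animals, that of the muscle list 17427 and 20800, that of 28 neuronal genes 5103 and 4948, and that of 39 sperm genes 3026 and 2886. The part of tissue makeup in the results was not tested. In these lists the muscle myosin unc-54 stood at 201 in fasting and 348 in fed drsh-1 animals, a change of −0.75. The intestinal actin act-5 stood at 382 and 693, a change of −0.83. Both were among the largest changes of their lists.

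The 133 lower genes were largely genes that were also lower in the other strains. Of them 120 were at least 2-fold lower in ain-1 (90.2% of the 133, beside 3.61% of all genes, and 27.8% of ain-1's 432). In daf-16 117 were so (88.0%, beside 5.12% of all genes, and 19.1% of 613). In wild type 116 were so (87.2%, beside 3.5% of all genes, and 27.7% of 419), and 109 (82.0%) were so in all 3. The median change of the 133 was −1.58 in drsh-1, against −2.41 in ain-1, −2.31 in daf-16 and −2.23 in wild type. In 81 of them the drsh-1 step was smaller than in each other strain and in 22 larger. Over all 133, fed drsh-1 was below every other fed array for 118 genes (88.7%, beside 39.4% of all genes), and fasting drsh-1 was below every other fasting array for 82 (61.7%, beside 33.7% of all genes). The 133 were picked by their fall in drsh-1 itself, which favours a low fasting drsh-1 value, so the share of 61.7% is partly set by that choice. The median intensity of the 133 in drsh-1 was 70.7 in fasting and 363 in fed animals.

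Read from the other side, drsh-1 had a part of the genes that were lower in all other strains and few of those that were higher. A total of 272 genes were at least 2-fold lower in each of the other 3 strains. Of the 272, 109 (40.1%, beside 1.11% of all genes) were so in drsh-1 and 266 lay below 0 (beside 48.2% of all genes). Their median was −0.81 in drsh-1, against −1.92 in wild type. Another 182 genes were at least 2-fold higher in each of the other 3 strains. Of the 182, 2 were so in drsh-1 (beside 0.0334% of all genes) and 127 (69.8%, beside 51.8% of all genes) lay above 0. The median of the 182 was 0.07 in drsh-1, against 1.398 in wild type. far-7, a fatty acid and retinol binding protein, is one of these, at 256 in fasting and 153 in fed drsh-1 animals, against 191 and 19.2 in ain-1, 216 and 14.9 in daf-16, and 215 and 20.0 in wild type. The fasting arrays of all 4 strains nearly met for far-7, and the fed drsh-1 array stood above the other fed ones.

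**Figure D4:**
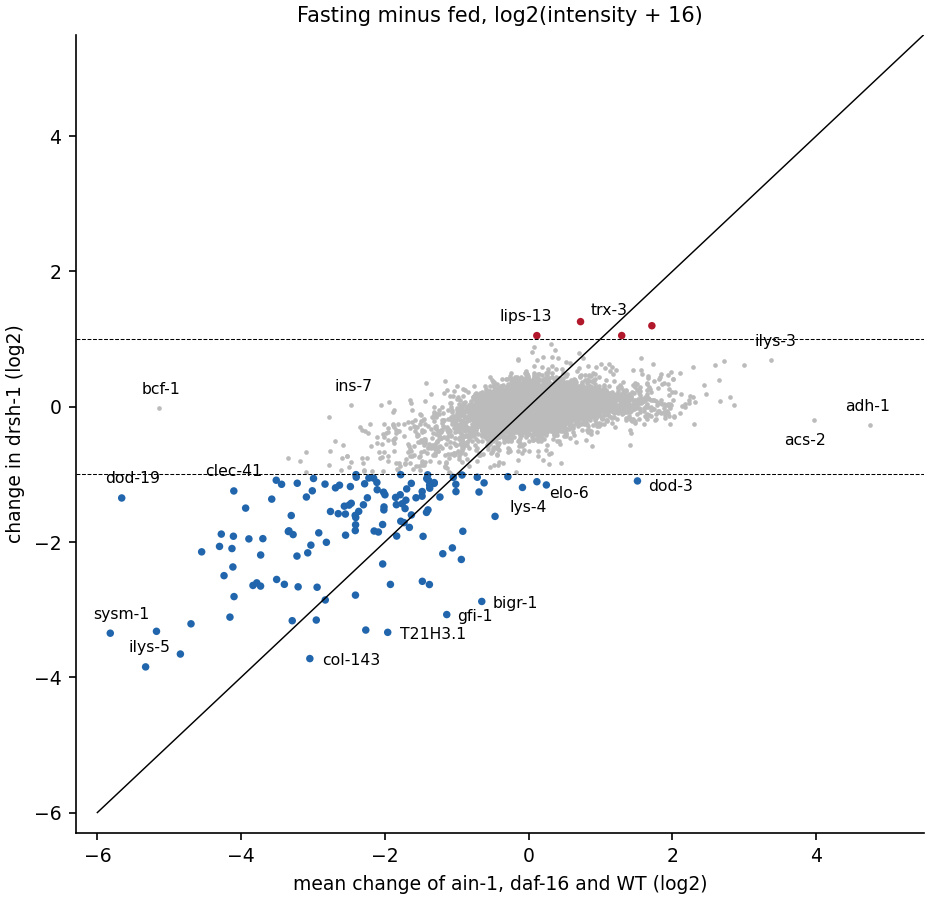
Change in drsh-1 (vertical) against the mean change of ain-1, daf-16 and wild type (horizontal) for 11975 genes, fasting minus fed on the log2(intensity + 16) scale, with the line of equality solid and 2-fold limits for drsh-1 dashed. The mean of the other strains runs from −5.82 to 4.76 (sysm-1 to adh-1), while grey genes stay within 2-fold in drsh-1, and more of the blue genes, at least 2-fold lower in drsh-1, lie above the line of equality than below it.

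The difference between the drsh-1 change and the mean change of the other 3 strains was tested with limma over all 8 arrays, with the spread of the fasting change among those 3 strains as the error (2 residual degrees of freedom). At an adjusted p under 0.05, limma called 0 of 15783 probe sets (percent called 0), with a lowest adjusted p of 0.127, while 2154 had an unadjusted p under 0.05. The outcome turned on the other strains that entered. Without the daf-16 pair limma called 962 (6.1%), without the ain-1 pair 115 (0.729%) and without the wild-type pair 352 (2.23%), each with 1 residual degree of freedom. A total of 89 probe sets (0.564%) were called in each of these 3 fits, 37 with the drsh-1 change above that of the others and 52 below it. The fasting daf-16 array also stood apart in some of its controls, where the foreign control probe sets differed from fed daf-16 by −0.04 to 1.03 (median 0.26) and the 3′ over 5′ ratio of the catalase control was 3.402, against 1.55 in the fed daf-16 array. For the other controls this ratio in fasting and fed daf-16 was 2.11 and 2.06 (actin), 1.197 and 1.193 (Gapdh), and 7.61 and 6.22 (ubiquitin). The part of the fasting daf-16 array in the result was not tested beyond the fit without the daf-16 pair. In every fit the single drsh-1 pair adds nothing to the error. The fits without 1 other strain lean on a spread borrowed from all probe sets (prior degrees of freedom 5.75 to 13.08, against 3.98 with all 8 arrays). Genes named below for a large difference were chosen on these same arrays, so their small p-values in those fits are no separate support.

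The lowest differences were those of adh-1 and acs-2. The highest were those of bcf-1 and dod-19, but bcf-1 was dim in both drsh-1 arrays. For adh-1 the drsh-1 change minus that of the others was −5.03 ± 0.50 (SE) on the log2 scale (limma adjusted p 0.127, and 0.000131 to 0.00715 in the 3 fits without 1 other strain). For acs-2 the difference was −4.17 ± 0.53 (SE, limma adjusted p 0.130, and 0.000629 to 0.00754 in those fits). hsp-16.2, a small heat shock gene, stood at 125 in fasting and 116 in fed drsh-1 animals, against 389 and 45.7 in ain-1, 595 and 58.6 in daf-16, and 186 and 26.1 in wild type (difference −2.58 ± 0.35 (SE), limma adjusted p 0.134). The aquaglyceroporin aqp-1 stood at 149.6 and 92.2 in drsh-1, against 461 and 40.9 in ain-1, 449 and 67.3 in daf-16, and 885 and 67.4 in wild type (limma adjusted p 0.157). In all 4 of these genes the fed drsh-1 array was the highest of the fed arrays and the fasting one the lowest of the fasting arrays.

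On the high side, bcf-1 in both drsh-1 arrays was under the intensity of 15.71 at which probe sets were set aside, so its drsh-1 change was not measurable. It stood at 11.95 in fasting and 12.4 in fed animals, against 31.8 and 906 in ain-1, 23.8 and 2030.0 in daf-16, and 19.3 and 1566 in wild type, and the fitted difference of 5.12 ± 0.56 (SE, limma adjusted p 0.127, and 0.000142 to 0.00719 without 1 other strain) rests on those dim values. dod-19, a gene downstream of DAF-16, stood at 1053 and 2707 in drsh-1, against 40.7 and 2900.1 in ain-1, 82.6 and 3271 in daf-16, and 42.4 and 4401 in wild type. Its fed arrays were of one order and its fasting drsh-1 array far above the other fasting ones (difference 4.31 ± 0.44 (SE), limma adjusted p 0.127, and 0.000206 to 0.00334 without 1 other strain). The insulin-like gene ins-7 stood at 427 and 421 in drsh-1, against 61.2 and 422 in ain-1, 174 and 757 in daf-16, and 33.9 and 352 in wild type, so both drsh-1 arrays stood near the fed levels of ain-1 and wild type (difference 2.49 ± 0.37 (SE), limma adjusted p 0.1498). Near-equal drsh-1 levels thus lay near the fed level of ain-1 and wild type for ins-7, and between the fed and fasting levels of the other strains for acs-2 and adh-1.

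In contrast, 22 of the 133 lower genes had a larger step in drsh-1 than in any other strain. In 81 of the 133 the drsh-1 step was smaller than in each other strain. The 133 were picked by their fall in drsh-1 itself, which favours a larger step there. Of the 22, bigr-1 stood at 32.2 in fasting and 339 in fed drsh-1 animals, against 39.1 and 72.6 in ain-1, 45.2 and 61.1 in daf-16, and 28.8 and 69.4 in wild type. All 4 fasting arrays were close, and the fed drsh-1 array was the high one (difference −2.23 ± 0.29 (SE), limma adjusted p 0.130, and 0.00422 to 0.0219 without 1 other strain). gfi-1 had the same shape, at 99.7 and 957 in drsh-1, against 117 and 320.2 in ain-1, 92.4 and 138 in daf-16, and 141 and 452 in wild type (limma adjusted p 0.221). T21H3.1 had the opposite one, at 123 and 1384 in drsh-1, against 1137 and 3784 in ain-1, 762 and 4045 in daf-16, and 1261 and 4348 in wild type, with both drsh-1 arrays lowest and the fasting one far below (difference −1.38 ± 0.30 (SE), limma adjusted p 0.204). The aspartyl proteases asp-13, asp-5 and asp-3 were also among the 22, with asp-13, chosen after its values were seen, at −2.09 in drsh-1, against −1.11 in ain-1, −1.199 in daf-16 and −0.87 in wild type.

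In 6 of the lower genes the mean change of the other strains was above −0.5: spp-14, lys-4, oac-14, elo-6, dod-3 and ugt-17. dod-3, a gene DAF-16 is known to activate, stood at 160.4 in fasting and 361 in fed drsh-1 animals, against 531 and 202 in ain-1, 98.0 and 42.7 in daf-16, and 1179 and 233 in wild type. It was lower in fasting in drsh-1 and higher in fasting in the other 3 strains (difference −2.61 ± 0.50 (SE), limma adjusted p 0.189, and 0.0101 to 0.0386 without 1 other strain). oac-14, an acyltransferase-like gene, stood at 166 and 389 in drsh-1, against 74.2 and 98.95 in ain-1, 128 and 54.01 in daf-16, and 108 and 103 in wild type (limma adjusted p 0.334). ugt-17 stood at 128 and 279 in drsh-1, against 57.6 and 70.8 in ain-1, 51.999 and 76.5 in daf-16, and 92.5 and 107 in wild type (limma adjusted p 0.290). For oac-14 and ugt-17 both drsh-1 arrays lay above all 6 others.

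**Figure D5:**
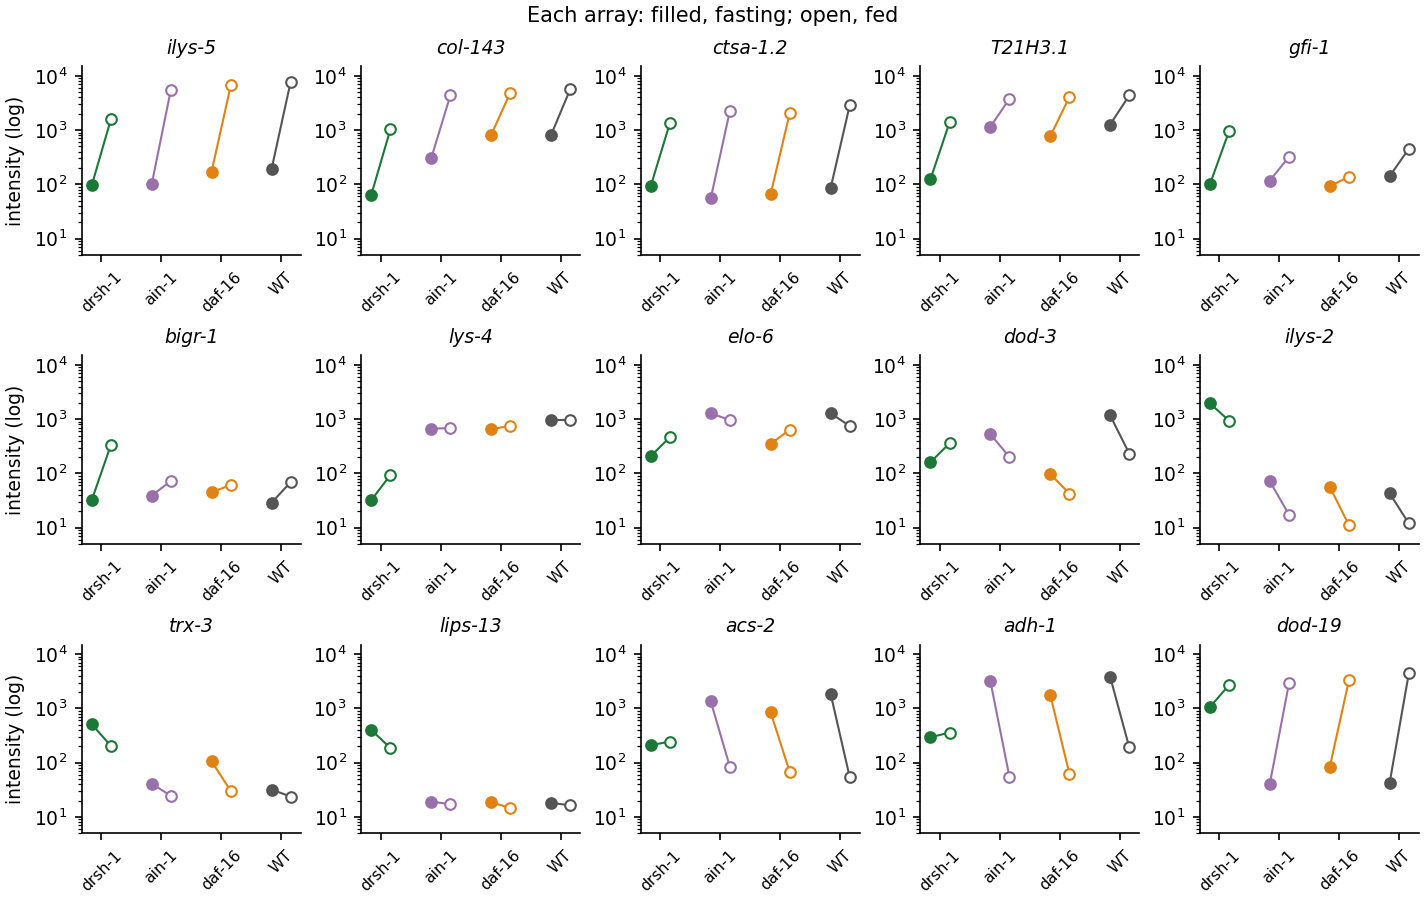
Intensity (log axis) of 15 genes on all 8 arrays, with fasting filled and fed open for drsh-1, ain-1, daf-16 and wild type. ilys-5, ctsa-1.2 and col-143 are lower in fasting in every strain, acs-2, adh-1 and dod-19 are flatter in drsh-1 than elsewhere, and bigr-1 and gfi-1 differ most in fed drsh-1 animals.

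Other properties of the 133 genes were described without a test. Where a lower gene had further probe sets, as 18 did, the median of those was also at least 0.5 lower in 17 (94.4%, beside 2.18% of the 2389 genes with several probe sets), with sqt-3 as the exception. By chromosome, 0.255% of tested genes were lower on I, 0.945% on II, 0.433% on III, 1.81% on IV, 1.82% on V and 1.26% on X. In the order of tested genes along the chromosomes, 18 of the 133 (13.5%, beside 2.205% of all genes) were next to another lower gene, in 9 pairs such as lys-1 with lys-2, col-159 with col-160, hrg-11.2 with irg-7 and spp-14 with vit-1. Pairs of like genes may share probe signal. In 5 of the lower genes the fasting value was under the level at which probe sets were set aside, an intensity of 15.71, so the size of their change depends on the added 16. D1086.3, at 8.23 in fasting and 137 in fed drsh-1 animals, is one.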

How the data were processed

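Total RNA was labelled with biotin by 3′ in vitro transcription and hybridised to C. elegans arrays from Affymetrix, and the labels' protocols say no more. For each of 8 arrays the deposited table holds 1 linear intensity per probe set. The sources used here do not give how the authors summarised, background-corrected and normalized these, and they were analysed unchanged. Columns were matched to samples by the sample identifier that names each column, and groups were read from the sample titles. Probe sets were named from the platform annotation, updated to RefSeq WBcel235 symbols: 20766 of 22548 had 1 symbol (20701 matched, 65 kept as given), 887 several and 895 none. Of the lower probe sets, 13 had no single symbol and are unnamed.

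From the deposited intensity, log2(intensity + 16) was taken, the 30% of probe sets with the lowest mean over 8 arrays were left out, and each gene was read from its brightest probe set. Counts used a 2-fold limit with no test, since each group is 1 array. The difference of the drsh-1 change from the other strains was fitted with limma 3.58.1 in R 4.3.3 (strain, food and food within drsh-1, empirical Bayes with trend, two-sided, Benjamini-Hochberg), a step tested on simulated data. Its p-values measure only the spread among these arrays.

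The question, the 70 gene lists and the rules were chosen with earlier results of these data known. Named genes were the 30 lowest and 20 highest in drsh-1, up to 4 members a list with the largest change, 10 each way by difference from the other strains, up to 8 each way not shared with them, and those at the 2-fold limits. Genes said to be picked after their values were seen fall outside that rule, as do the lower genes named only in a count. Alternatives were no filter or a 50% filter, pseudocounts of 1 and 64, quantile normalization, median centring, 3-fold and 1.5-fold limits, averaging the probe sets of each gene, no variance trend, and leaving out 1 other strain.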

Additional observations from a re-analysis of the deposited data

Results flagged for a closer look

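In 5 genes, all of them members of the gene lists, the drsh-1 change was negative by more than 2 times the typical spread of a difference (0.171). In the same genes all 3 other strains were positive by more than that. The share of such genes over all genes is not given here. These 5 were picked by the same difference that limma tests on the same arrays, so calls among them are no separate support. Over all probe sets, limma called 6.1% without the daf-16 pair, 2.23% without the wild-type pair and 0.729% without the ain-1 pair. The limma test of the difference called none of the 5 at an adjusted p under 0.05 over all 8 arrays. Without the daf-16 pair it called 4 of them, dod-3 (limma adjusted p 0.0101), lam-1 (0.0161), aakg-2 (0.0230) and skr-16 (0.0272), and not lam-2 (0.0526). Without the wild-type or the ain-1 pair it called dod-3 (0.0120 and 0.0386) and none of the other 4. dod-3 differed by −1.097 in drsh-1, against 1.33 in ain-1, 0.96 in daf-16 and 2.26 in wild type (limma adjusted p 0.189). The laminin genes lam-2 and lam-1 differed by −0.59 and −0.37 in drsh-1 and upward in the other strains (limma adjusted p 0.244 and 0.203). aakg-2, a regulatory subunit of AMP-activated kinase, stood at 107 in fasting and 143.3 in fed drsh-1 animals, a change of −0.37, against 0.74 in ain-1, 1.31 in daf-16 and 0.79 in wild type (limma adjusted p 0.223). skr-16, an SKP1-related gene, stood at 46.8 and 63.7 in drsh-1, a change of −0.35, against 0.71 in ain-1, 0.93 in daf-16 and 0.89 in wild type (limma adjusted p 0.196).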

How the results depend on the processing

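With 1 array a group, the counts within drsh-1 have no error, and array number limits all of them. The 5 probe sets at least 2-fold higher became 9 with a pseudocount of 1, 3 with a pseudocount of 64, 0 at 3-fold and 39 at 1.5-fold. The 164 lower probe sets became 81 at 3-fold and 355 at 1.5-fold, and stayed within 1.5 times under the other settings, among them 157 after quantile normalization. The 6 lists with a median of at most −0.3 became 3 with a pseudocount of 64. The limma test of the difference gave 0 calls in every setting that kept all 8 arrays, and 352, 115 and 962 without the wild-type, ain-1 and daf-16 pairs, and why was not tested. Among list medians 479 of the alternative values stayed close and 11 moved, and no result reversed. Among named genes 1648 stayed close and 145 moved, all under a pseudocount of 1 or 64. No paired analysis was possible because each group has 1 array and no replicate number to serve as a block, beyond the pairing of fasting with fed within a strain that the strain term of the limma fit already makes.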
